A study of Mus musculus with 16 samples.

Results

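RNA of the left ventricle was compared between 7d and 3h after surgery: 4 libraries labelled 7d against 4 labelled 3h, 8 of the 16 libraries of a mouse series. All 16 came from male C57BL/6 mice labelled as post-abdominal surgery under the inhaled anaesthetic sevoflurane, and the other 8 are labelled 0h and 24h, the 0h libraries carrying the surgery label too. No group without an operation was analysed here, and whether the 4 libraries of a time come from separate animals is not in the labels, so p-values measure the spread between these samples. Of 57143 genes in the table, the 16866 with a mean of 0.5 TPM or more over the 16 libraries were tested (TPM, a level corrected for gene length and library total). The contrast needs no 0h library: it asks how the early state of the heart differs from the state a week later. In what follows a gene rose or fell at 7d, relative to 3h, where its adjusted p was under 0.05.

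Surgery releases glucocorticoids from the adrenal gland, and their receptor switches on genes of glucose sparing, such as Pdk4, and of feedback, such as Fkbp5, in many tissues, the heart among them. Cytokines of the interleukin-6 family act through the transcription factor STAT3, which drives acute-phase genes and its own inhibitor Socs3. S100A8 and S100A9, named in the title of the series, form a calcium-binding pair stored in neutrophils. The mouse ventricle expresses mainly the alpha myosin heavy chain Myh6 in the adult, and Myh7, the beta chain, is known as a fetal and stress-associated form.

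Total counts per library ran from 9.06 to 9.66 M at 3h and from 10.3 to 12.9 M at 7d. Across the tested genes, which are not independent replicates, Pearson's r of log2 CPM (counts scaled to the library total) ran from 0.982 to 0.986 within 3h, from 0.98 to 0.987 within 7d and from 0.973 to 0.981 between them. Cardiomyocyte markers summed to 104712 to 110925 TPM at 3h and 92477 to 117101 TPM at 7d. By edgeR 0 of the 10 were past the threshold (1 at an unadjusted p under 0.05, 0 by DESeq2). The libraries thus held heart muscle RNA at a high level, which does not exclude RNA of other chambers or tissues. Some libraries stood apart. 3h replicate 3 held 146 TPM of Myl7, an atrial light chain, against at most 8.39 TPM in the other 7 libraries. Myl7 ran from 0.977 to 146 TPM at 3h and from 0.504 to 0.844 TPM at 7d, without overlap. 3h replicates 2, 3 and 4 held albumin RNA, at 35.6, 28.5 and 5.42 TPM. 7d replicate 2 held 4062 TPM of Myh7 and 2760.3 TPM of Nppa, the atrial natriuretic peptide. In 3h replicate 1, 875 genes had a count that no other of the 16 libraries had, against 152 to 255 in the other 7 compared.

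The comparison called 778 genes (4.61% of those tested), of which 327 (1.94%) were higher and 451 (2.67%) lower at 7d. More than 2-fold changes were made by 102 of the higher and 201 of the lower genes. The median log2 fold change was 0.72 among the higher, -0.92 among the lower and 0.003 over all genes tested. In 682 of the 778 called genes the 4 and the 4 libraries did not overlap in TPM, against 12.8% of all genes tested. Leaving out 1 library gave between 444 calls, without 3h replicate 1, and 774, without 7d replicate 2. Without 3h replicates 1, 2 or 3 or 7d replicate 1 the count was more than 1.5 times smaller (444, 490, 501 and 502). Without both 3h replicates 2 and 3 it was 238, and without both 3h replicate 3 and 7d replicate 2, a choice made after seeing the data, 509.

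**Figure D1:**
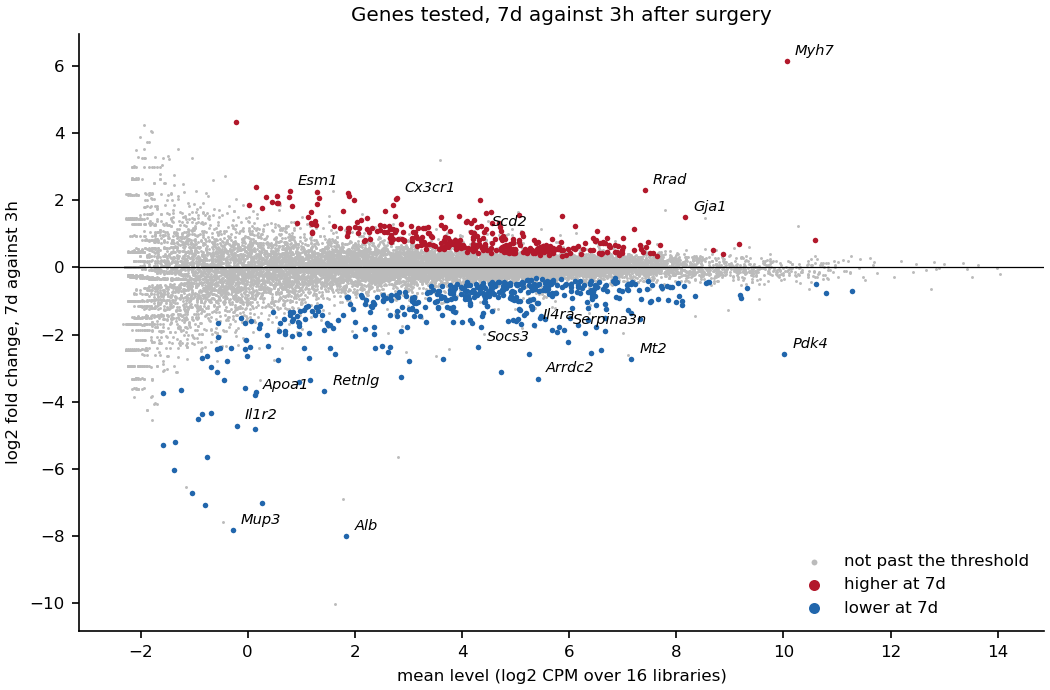
Log2 fold change at 7d against 3h of the 16866 genes tested (vertical axis) by mean level in log2 CPM over the 16 libraries (horizontal axis), with 327 genes higher at 7d in red and 451 lower in blue. Myh7 stands at 6.14, and Mup3 and Alb, made by the liver, at -7.82 and -8.01.

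The times outside the contrast show where the 2 states lie. A gene's mean of log2(TPM + 1) at 0h was nearer to 7d than to 3h for 86.5% of the genes higher at 7d, for 47.5% of those lower and for 60.7% of all tested. For 192 of the 327 higher genes the 0h mean lay between the means at 3h and 7d, and for 133 it lay above that at 7d. Of the 451 lower genes, 338 had a 0h mean between the others, 78 one above that at 3h and 35 one below that at 7d. At 24h the mean was nearer to 7d for 40.4% of the higher genes, 64.3% of the lower and 45.7% of all tested. Since these genes were chosen on 3h and 7d, the 2 compared means are farther apart for them than for genes in general. No test was made of these shares. The 24h means pool unlike libraries: over replicates 1 to 4, Myl7 measured 63.8, 126, 6.97 and 159 TPM and Fkbp5 39.4, 19.6, 13.2 and 65.3 TPM.

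**Figure D2:**
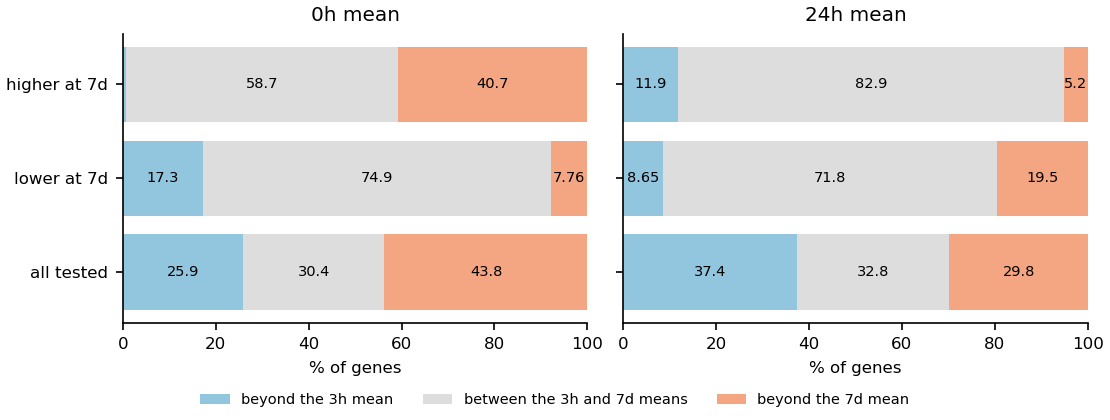
Share of genes, in percent, whose mean log2(TPM + 1) at 0h (left) or 24h (right) lay beyond the 3h mean, between the 3h and 7d means or beyond the 7d mean, for genes higher at 7d, lower at 7d and all tested. At 0h, 40.7% of the higher genes lay beyond the 7d mean and 7.76% of the lower.

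In the glucocorticoid-responsive list more members fell than not. Of its 26 genes 25 were tested: 15 were lower at 7d, 0 higher, and all 25 had a fitted change below 0, with a median log2 fold change of -1.51, against 0.003 over all genes tested and 2.67% of all genes called lower. Pik3r1, a regulatory subunit of phosphoinositide 3-kinase, measured 67.1, 88.9, 90.2 and 73.3 TPM at 3h and 40.4, 47.3, 38.7 and 47.8 TPM at 7d. Every 7d library lay under every 3h library (adjusted p = 0.00158, log2 fold change -0.96, SE 0.16). Klf9, a zinc-finger repressor induced by glucocorticoids, gave 207, 215, 205 and 194 TPM at 3h and 103, 146, 98.8 and 131 TPM at 7d (adjusted p = 0.00266, log2 fold change -0.87, SE 0.16), again without overlap. Pdk4, the kinase that shuts pyruvate out of the mitochondrial pyruvate dehydrogenase, was the most abundant of them: 936, 1487, 1325 and 975 TPM at 3h and 282, 91.4, 276 and 191 TPM at 7d. The highest 7d library lay far below the lowest 3h library (adjusted p = 0.0124, log2 fold change -2.58, SE 0.51). Map3k6, a stress-activated kinase, gave 51.2, 47.7, 46 and 47.6 TPM at 3h and 4.52, 15.4, 4.49 and 9.45 TPM at 7d (adjusted p = 0.0134, log2 fold change -2.57, SE 0.51).

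Larger falls in the same list came from Arrdc2 and Rasd1. Arrdc2, an arrestin-domain protein, measured 82.1, 102, 112 and 104 TPM at 3h and 6.17, 18.4, 7.71 and 9.44 TPM at 7d (adjusted p = 0.0148, log2 fold change -3.31, SE 0.67), and Rasd1, a small GTPase first found by its induction with dexamethasone, 39.9, 34.6, 18.6 and 21.7 TPM at 3h and 1.29, 2.71, 1.55 and 7.01 TPM at 7d (adjusted p = 0.028, log2 fold change -3.26, SE 0.76). Fkbp5, a co-chaperone that holds back the glucocorticoid receptor and is named here with its values known, gave 54, 54.2, 59.8 and 52.8 TPM at 3h and 6.38, 22.4, 5.05 and 8.09 TPM at 7d. Replicate 2 was the highest 7d library for it, yet lay below all of 3h (adjusted p = 0.0399, log2 fold change -2.46, SE 0.61). Also named with their values known, Tsc22d3 (the leucine-zipper protein GILZ) fell (log2 fold change -1.37, adjusted p = 0.0227), as did Sgk1, a kinase of ion transport (log2 fold change -1.04, adjusted p = 0.0425), and Cebpd, a transcription factor of inflammation (log2 fold change -2.22, adjusted p = 0.0135). Cdkn1a, the cell cycle inhibitor p21, stood at 152, 117, 119 and 95.3 TPM at 3h and 11.6, 36.3, 15.7 and 22.7 TPM at 7d (adjusted p = 0.032, log2 fold change -2.56, SE 0.60). Over all genes lower at 7d, 74.9% had a 0h mean between 3h and 7d and 7.76% one below 7d. In this list 14 of the 15 lower members had a 0h mean between 3h and 7d and 1 had one below 7d. Fkbp5, for example, averaged 16.6 ± 7.24 TPM at 0h (mean ± SD, n = 4) and Map3k6 18.7 ± 5.6 TPM.

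Pik3r1 and Klf9 passed in every alternative fitted. Pdk4, Map3k6 and Cebpd passed whichever 1 library was left out, but not in at least 1 of the fits with Myl7 as a covariate and without both 3h replicates 2 and 3. Pdk4 also missed the threshold without both 3h replicate 3 and 7d replicate 2. Arrdc2 missed the threshold without 7d replicate 1 (adjusted p = 0.0511). Rasd1 kept its call only without 3h replicates 3 or 4 or 7d replicate 4 (adjusted p up to 0.0837 otherwise). Fkbp5 and Cdkn1a kept their calls only without 7d replicate 2 (adjusted p up to 0.11 and 0.094 otherwise). Tsc22d3 kept its call only without 3h replicates 3 or 4 or 7d replicate 2 (adjusted p up to 0.0688 otherwise). Sgk1 lost its call without each single library in turn (adjusted p up to 0.112). Arrdc2 was not called by DESeq2 either. The count of 15 was 6 without 3h replicate 1, 3h replicate 2, 7d replicate 1 or 7d replicate 3, 8 without 3h replicate 3, 3h replicate 4 or 7d replicate 4, and 12 without 7d replicate 2. It was 2 without both 3h replicates 2 and 3, 2 with Myl7 as a covariate, 8 without both 3h replicate 3 and 7d replicate 2, and 20 by DESeq2. The list shares Mt2, Cebpd, Mt1 and Lcn2 with the acute-phase list, and neutrophil and hepatocyte markers fell along with it (values below); their part in it was not tested.

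**Figure D3:**
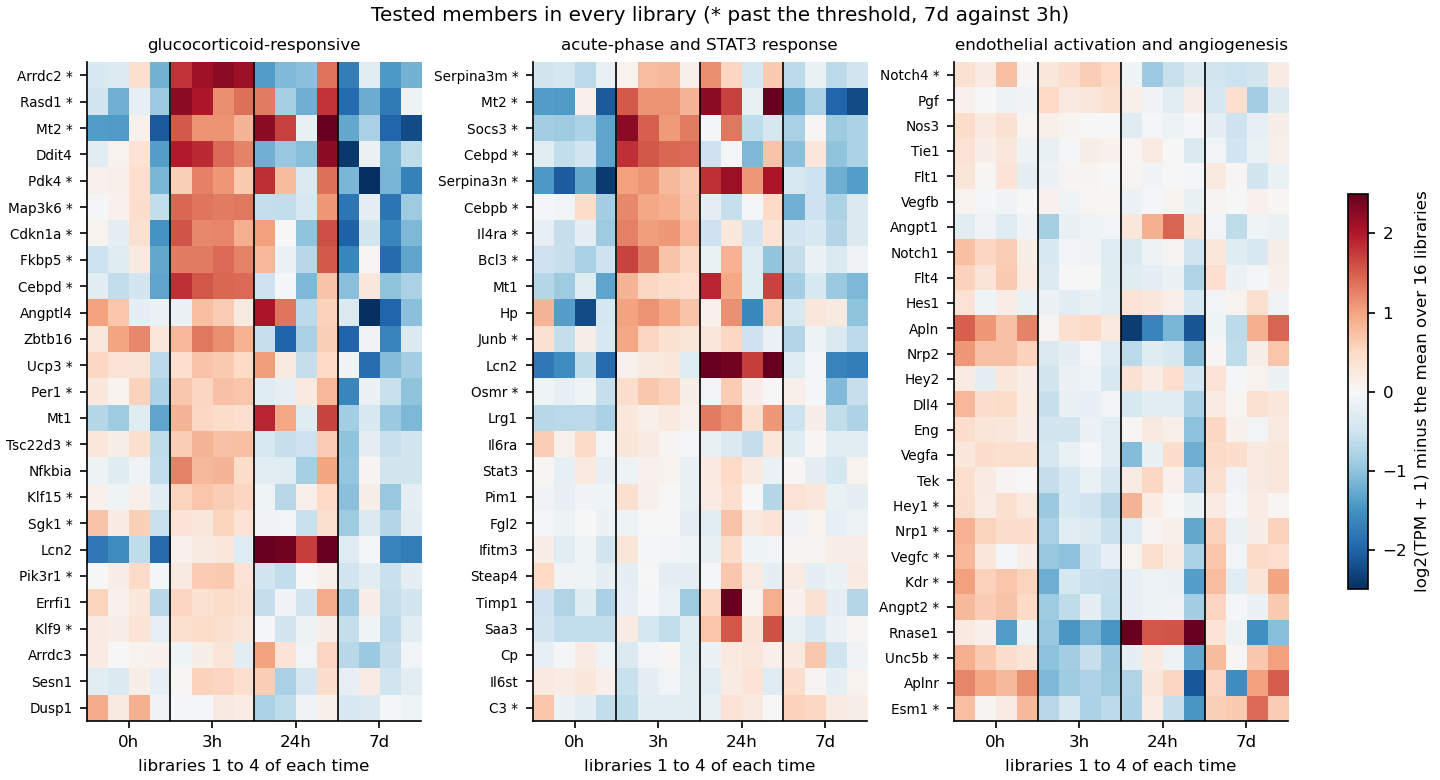
Level of the tested members of the glucocorticoid-responsive (25), acute-phase and STAT3 (25) and endothelial activation and angiogenesis (26) lists in each of the 16 libraries, as log2(TPM + 1) minus the gene's mean over the libraries, ordered by the log2 fold change at 7d against 3h (asterisk, adjusted p under 0.05). The glucocorticoid list is above its mean in the 4 libraries of 3h for nearly every gene and below it in most of 7d, while libraries of 24h differ among themselves.

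Promoters of members that fell are shown because the glucocorticoid receptor and STAT3 each bind a known DNA motif. They are the 250 bases before a gene's start in RefSeq (build GRCm38.p6), 5' to 3' on the gene's strand, with capitals marking the motif searched: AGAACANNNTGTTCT, a full palindromic glucocorticoid response element, in the first 3 sequences, and TTCNNNGAA, a STAT site, in the last 2. Both strands were searched. Klf9 lies at chr19:23140976-23141225, + strand, Pdk4 at chr6:5496279-5496528, - strand, Sgk1 at chr10:21993640-21993889, + strand, Socs3 at chr11:117969367-117969616, - strand and Serpina3n at chr12:104406458-104406707, + strand.
Klf9: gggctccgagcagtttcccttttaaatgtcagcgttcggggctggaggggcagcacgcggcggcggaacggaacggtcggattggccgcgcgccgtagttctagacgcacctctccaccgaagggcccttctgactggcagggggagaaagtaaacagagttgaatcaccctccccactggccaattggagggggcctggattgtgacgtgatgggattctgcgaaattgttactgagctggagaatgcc
Pdk4: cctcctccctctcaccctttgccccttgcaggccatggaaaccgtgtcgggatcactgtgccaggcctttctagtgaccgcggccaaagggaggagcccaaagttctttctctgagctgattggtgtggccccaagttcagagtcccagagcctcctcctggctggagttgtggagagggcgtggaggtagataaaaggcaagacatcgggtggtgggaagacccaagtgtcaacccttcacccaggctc
Sgk1: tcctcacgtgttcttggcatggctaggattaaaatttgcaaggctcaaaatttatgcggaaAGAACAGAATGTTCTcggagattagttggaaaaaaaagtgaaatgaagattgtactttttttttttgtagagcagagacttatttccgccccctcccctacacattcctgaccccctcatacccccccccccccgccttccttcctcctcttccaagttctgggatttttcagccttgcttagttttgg
Socs3: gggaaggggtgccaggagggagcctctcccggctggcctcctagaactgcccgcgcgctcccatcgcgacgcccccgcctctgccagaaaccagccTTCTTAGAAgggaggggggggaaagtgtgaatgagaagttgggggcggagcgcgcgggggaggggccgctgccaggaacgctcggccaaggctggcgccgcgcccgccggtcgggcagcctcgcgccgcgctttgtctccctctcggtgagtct
Serpina3n: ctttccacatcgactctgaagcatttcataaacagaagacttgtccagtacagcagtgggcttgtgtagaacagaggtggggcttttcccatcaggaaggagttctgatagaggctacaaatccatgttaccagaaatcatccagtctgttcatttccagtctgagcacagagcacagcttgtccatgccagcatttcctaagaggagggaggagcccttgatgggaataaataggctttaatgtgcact
The full element occurs in 3 of 32851 promoters of the table, and 1 of these is at this start of Sgk1, 1 of 6 starts listed for the gene, 189 bases before it; this start was chosen after the matches were seen. Of the 13 lower members of the glucocorticoid list with a promoter in the table, 1 held the full element and 2 (15.38%) its arm TGTTCT at any of their starts, against 16.08% of all promoters. Pik3r1, Klf9, Pdk4 and Map3k6 held neither. The STAT site was found in 7.02% of all promoters, in 1 of 8 lower acute-phase members (Socs3, 154 bases before the start) and in 5 of the 13 lower glucocorticoid members, where a gene with several starts has more than 1 promoter to match. Such matches are a description of these letters in this window and no measure of binding.

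Fuel-use genes outside the glucocorticoid list moved singly. Pfkfb3, which makes the activator of glycolysis fructose 2,6-bisphosphate, fell: 17.8, 14.6, 16.7 and 12.7 TPM at 3h and 5.39, 5.9, 4.02 and 3.81 TPM at 7d, with no overlap (adjusted p = 0.000935, log2 fold change -1.79, SE 0.26). Eno1, enolase, rose (46 to 51.7 TPM at 3h, 67.3 to 82 TPM at 7d, adjusted p = 0.00647, log2 fold change 0.44, SE 0.09). Pfkfb1, a related bifunctional enzyme, fell (log2 fold change -0.91, adjusted p = 0.037). Of 25 genes of glycolysis and glucose uptake 1 was higher and 3 lower, Pdk4 being the third of these. Over all genes tested 1.94% were higher and 2.67% lower. In the list of fatty acid oxidation and PPARA targets 3 of 32 were lower and 0 higher. These were Pdk4, Plin5, a coat protein of lipid droplets (255 to 358 TPM at 3h, 188 to 229 TPM at 7d, adjusted p = 0.0167, log2 fold change -0.65, SE 0.16), and Ucp3, a mitochondrial carrier (89.8 to 109.6 TPM at 3h, 17.1 to 62.4 TPM at 7d, adjusted p = 0.0489, log2 fold change -1.56, SE 0.41).

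Lipid synthesis genes went in opposite directions. Scd2, a stearoyl-CoA desaturase, had one of the smallest p-values of all genes: 6.86, 7.66, 7.95 and 6.96 TPM at 3h and 15.9, 15.8, 17.2 and 15.7 TPM at 7d. The groups lay far apart and each spread little (adjusted p = 2.06e-05, log2 fold change 1.05, SE 0.12). Acaca, acetyl-CoA carboxylase, rose with overlap (1.37 to 1.92 TPM at 3h, 1.72 to 3.85 TPM at 7d, adjusted p = 0.0142, log2 fold change 0.77, SE 0.18). Thrsp, a lipogenic nuclear protein, fell: 104, 105, 106 and 90.3 TPM at 3h and 31.1, 38.1, 40.7 and 39.2 TPM at 7d (adjusted p = 0.000318, log2 fold change -1.53, SE 0.20). Of 21 lipogenesis genes tested these 3 were past the threshold, against 4.61% of all genes tested. Lipe, hormone-sensitive lipase, fell (46.5 to 53.2 TPM at 3h, 23.7 to 34.2 TPM at 7d, adjusted p = 0.000413, log2 fold change -0.93, SE 0.14), the 1 adipocyte marker called of 6 tested; adipocyte markers summed to 677 to 736 TPM at 3h and 436 to 688 TPM at 7d. Stard4, a cholesterol carrier, was the 1 called of 24 genes of cholesterol synthesis (log2 fold change 0.57, adjusted p = 0.0485). Pfkfb3, Scd2, Thrsp and Lipe passed in every alternative fitted. Eno1 passed whichever 1 library was left out, but not in at least 1 of the fits with Myl7 as a covariate and without both 3h replicates 2 and 3. Plin5 missed the threshold without 3h replicate 2 or 7d replicates 1 or 3 (adjusted p up to 0.0662). Acaca missed the threshold without 3h replicates 1 or 2 or 7d replicate 1 (adjusted p up to 0.0678). Pfkfb1 kept its call only without 7d replicates 2 or 3 (adjusted p up to 0.109 otherwise). Ucp3 kept its call only without 7d replicate 1 (adjusted p up to 0.112 otherwise). Stard4 kept its call only without 7d replicate 2 (adjusted p up to 0.138 otherwise).

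Part of the acute-phase and STAT3 list fell as well: of its 29 genes 25 were tested. Of these 10 were lower, 1 higher and 14 not past the threshold, with a median log2 fold change of -0.97. Over all genes tested 2.67% were lower and 1.94% higher. Il4ra, a receptor chain for interleukins 4 and 13, measured 42.9, 36.7, 37.5 and 31.5 TPM at 3h and 12, 13, 10.002 and 13.3 TPM at 7d. The groups lay far apart (adjusted p = 0.000238, log2 fold change -1.71, SE 0.21). Serpina3n, a secreted protease inhibitor of the acute phase, gave 106, 112, 90.5 and 82.9 TPM at 3h and 38.6, 35, 21.4 and 19.2 TPM at 7d (adjusted p = 0.00334, log2 fold change -1.87, SE 0.30); at 0h it averaged 14.8 ± 5.57 TPM and at 24h 185 ± 53.3 TPM, above both compared times. Cebpb, a transcription factor of the acute phase, stood at 282, 241, 226 and 201 TPM at 3h and 52.8, 85.9, 70.6 and 95.7 TPM at 7d (adjusted p = 0.00554, log2 fold change -1.73, SE 0.30). Socs3, the feedback inhibitor of STAT3 signalling, gave 70.8, 41.3, 30.3 and 35.7 TPM at 3h and 7.51, 14.4, 7.07 and 7.65 TPM at 7d. Replicate 1 was the highest of 3h and replicate 2 of 7d, and no library overlapped (adjusted p = 0.00856, log2 fold change -2.37, SE 0.44).

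Further lower members were Bcl3, an atypical inhibitor of NF-kB (log2 fold change -1.62, adjusted p = 0.00858), Osmr, the oncostatin M receptor (log2 fold change -0.97, adjusted p = 0.0232), Cebpd, Junb, Serpina3m and the metallothionein Mt2, and these apart from Mt2 are named with their values known. C3, the central complement component, was the member that rose: 57.1, 73.4, 73 and 73.2 TPM at 3h and 134, 127, 104 and 98.5 TPM at 7d (adjusted p = 0.0456, log2 fold change 0.66, SE 0.18). Mt2, a zinc-binding protein induced by glucocorticoids and metals, gave 1100.3, 827, 827 and 686 TPM at 3h and 157, 216, 95.3 and 80.5 TPM at 7d (adjusted p = 0.0314, log2 fold change -2.74, SE 0.64). It was the only member past the threshold of 15 tested for metallothioneins and zinc transport, against 4.61% of all genes tested. Its neighbour Mt1 had a like direction without passing (763 to 1025 TPM at 3h, 262 to 436 TPM at 7d, adjusted p = 0.0729, log2 fold change -1.46, SE 0.42). Il4ra, Serpina3n, Cebpb, Socs3 and Bcl3 passed in every alternative fitted. Osmr missed the threshold without 3h replicates 1, 2 or 3 or 7d replicate 4 (adjusted p up to 0.0716). Mt2 kept its call only without 7d replicate 2 (adjusted p up to 0.0862 otherwise). C3 kept its call only without 7d replicate 4 (adjusted p up to 0.137 otherwise). The count of 10 lower members was 6 without 3h replicate 1, 3h replicate 2 or 7d replicate 4, between 7 and 11 without any other library, and 5 without both 3h replicates 2 and 3.

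Neither gene of the series title passed in this contrast. S100a8 (ENSMUSG00000056054) measured 130.5, 49.6, 44.9 and 37.9 TPM at 3h and 9.0, 26.5, 2.87 and 10.4 TPM at 7d, and S100a9 (ENSMUSG00000056071) 356, 113, 80.8 and 92.5 TPM at 3h and 23.4, 70.5, 9.07 and 23.5 TPM at 7d. For both, the highest 7d library lay below the lowest 3h library, replicate 1 was far above the other 3h libraries and replicate 2 the highest of 7d. The fit gave for S100a8 adjusted p = 0.0771, log2 fold change -2.51, SE 0.73, and for S100a9 adjusted p = 0.0849, log2 fold change -2.44, SE 0.73. For each gene an exact permutation test of log2(TPM + 1), two-sided, returned p = 0.0286, which is the smallest of its 70 orderings. Without 7d replicate 2 both passed, S100a8 with a log2 fold change of -3.3 (adjusted p = 0.0415 by edgeR) and S100a9 of -3.28 (adjusted p = 0.0394). DESeq2 called both, and they were past the threshold in 7 of 24 and 7 of 24 alternative fits. Among these was the fit over every gene with a count, whose adjusted p-values were far smaller (values below).

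Some other neutrophil markers fell. Of 18 in the list 13 passed the filter on low values, which a gene high at 1 time only can pass through that time. Of the 13, 6 were lower and 0 higher, with a median log2 fold change of -1.98. Over all genes tested 2.67% were lower. Il1r2, a decoy receptor for interleukin 1, totalled 72 counts at 3h and 3 at 7d, a ratio of 30.5 scaled by library totals (95% exact counting interval 10 to 151, adjusted p = 0.00306). Retnlg, a resistin-like gene of granulocytes, gave 62.7, 26.1, 13.9 and 19.3 TPM at 3h and 1.51, 5.82, 1.68 and 0.811 TPM at 7d (adjusted p = 0.00606, log2 fold change -3.68, SE 0.69). Hdc, which makes histamine, measured 3.84, 1.61, 1.48 and 1.79 TPM at 3h and 0.605, 0.468, 0.468 and 1.13 TPM at 7d (adjusted p = 0.00682, log2 fold change -1.82, SE 0.38). Cxcr2, a chemokine receptor, stood at 2.08, 2.75, 1.61 and 1.73 TPM at 3h and 0.195, 1.28, 0 and 0.0789 TPM at 7d (adjusted p = 0.0257, log2 fold change -2.37, SE 0.62), and Mmp8, the neutrophil collagenase, at 3.8, 2.26, 0.883 and 1.66 TPM at 3h and 0, 0.379, 0.103 and 0.198 TPM at 7d (adjusted p = 0.0487, log2 fold change -3.58, SE 1.0). Replicate 2 was the highest 7d library for all of these but Hdc. Markers of the list summed to 177 to 605 TPM at 3h, 21.9 to 124 TPM at 7d and 15.4 to 20.7 TPM at 0h. In bulk tissue, fewer cells of a type and less RNA per cell cannot be told apart. Il1r2 and Retnlg passed in every alternative fitted. Hdc passed whichever 1 library was left out, but not by limma on log2(TPM + 0.1) or by limma on log2(TPM + 1). Cxcr2 kept its call only without 3h replicates 3 or 4 or 7d replicate 2 (adjusted p up to 0.0853 otherwise). Mmp8 kept its call only without 3h replicate 3 (adjusted p up to 0.146 otherwise). Mmp8 was not called by DESeq2 either. The count of 6 was 3 without 3h replicates 1 or 2 or without 7d replicates 3 or 4.

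Monocyte and macrophage markers gave single calls, while 1.94% of all genes tested were called higher and 2.67% lower. Of 7 monocyte markers tested 0 were higher and 1 lower. The list summed to 13.6 to 19.6 TPM at 3h and 20.9 to 26.2 TPM at 7d. Of 12 resident macrophage markers tested 1 was lower and 1 higher. The higher one, Cx3cr1, the fractalkine receptor, measured 1.03, 1.65, 1.84 and 0.964 TPM at 3h and 3.91, 2.2, 8.7 and 9.2 TPM at 7d (adjusted p = 0.0325, log2 fold change 2.05, SE 0.51). Gpr183, a receptor for oxysterols that guides leukocytes, rose without overlap: 0.899, 0.669, 0.53 and 1.29 TPM at 3h and 3.09, 3.9, 4.06 and 4.16 TPM at 7d (adjusted p = 0.00611, log2 fold change 2.06, SE 0.43). C3ar1, the receptor for complement fragment C3a, rose (3.51 to 3.82 TPM at 3h, 8.45 to 16 TPM at 7d, adjusted p = 0.00157, log2 fold change 1.48, SE 0.25). With Cd55, a membrane inhibitor of complement (7.39 to 9.33 TPM at 3h, 11 to 15.9 TPM at 7d, adjusted p = 0.00774, log2 fold change 0.66, SE 0.14), and C3, it made up the 3 higher of 24 genes of complement and coagulation. C3ar1 passed in every alternative fitted. Gpr183 and Cd55 passed whichever 1 library was left out, but not in at least 1 of the fits with Myl7 as a covariate and without both 3h replicates 2 and 3. Cd55 also missed the threshold without both 3h replicate 3 and 7d replicate 2. Cx3cr1 kept its call only without 7d replicates 1 or 2 (adjusted p up to 0.107 otherwise).

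The largest falls were of transcripts made by the liver. Of 18 hepatocyte markers 12 were tested, and a marker high only at 3h could pass the filter on low values through that time, so the count and median are a description. Of the 12, 6 were lower, with a median log2 fold change of -4.07, against 2.67% lower over all genes tested. At a mean of 2 TPM or more, 4 of 7 were lower, with a median of -1.77. Mup3, one of the near-identical major urinary protein genes, between which counting may have split reads, had 101 counts at 3h and 0 at 7d, at least 42.8-fold lower at 7d against 3 counts over the group. Over its 3h libraries it measured 0.298, 15.6, 12.3 and 4.47 TPM. Fgg, a fibrinogen chain, had 61 and 1 counts (ratio 77.5, 95% exact counting interval 13.4 to 3110.0), and Hpx, hemopexin, 56 and 3 (ratio 23.7, interval 7.71 to 119). Apoa1, an apolipoprotein of high-density lipoprotein, gave 1.87, 14.3, 12.4 and 3.0 TPM at 3h and 0.722, 0.372, 0.202 and 0.972 TPM at 7d (adjusted p = 0.000755, log2 fold change -3.8, SE 0.62). Alb, albumin, named with its values known, had 518 and 2 counts, with 0 in 3h replicate 1. The list summed to 85.1 to 215 TPM at 3h, where replicates 2 and 3 were the highest, and to 71.7 to 77.4 TPM at 7d. Counting intervals and the floor of 3 counts cover counting error only. Apoa1, Fgg, Hpx, Mup3 and Alb passed whichever 1 library was left out, but not in at least 1 of the fits with Myl7 as a covariate and without both 3h replicates 2 and 3. Alb and Mup3 were also not called with library weights or in a fit of only the 8 libraries. Limma on log2(TPM + 0.1) did not call Alb, Hpx or Fgg, and limma on log2(TPM + 1) did not call Fgg. Alb also missed the threshold without both 3h replicate 3 and 7d replicate 2. Without both 3h replicates 2 and 3 the count of 6 was 1, Alb. Without any 1 library it was between 5 and 8.

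**Figure D4:**
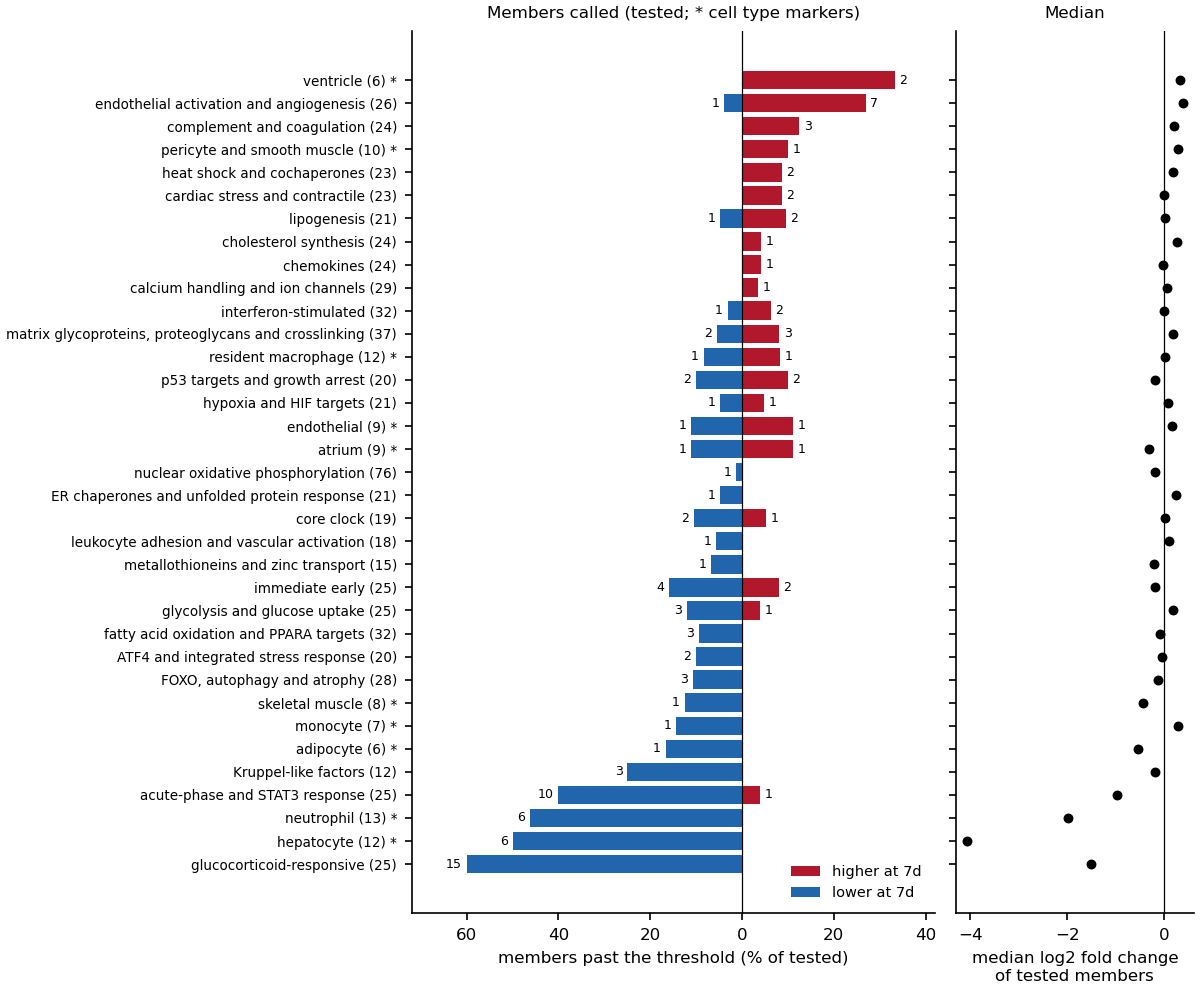
Members past the threshold, in percent of those tested (number in parentheses), higher (red, right) or lower (blue, left) at 7d, for the functional and marker lists with a call, and the median log2 fold change of tested members. The bars of the glucocorticoid (15 of 25), hepatocyte (6 of 12), neutrophil (6 of 13) and acute-phase (10 of 25) lists are the longest to the left.

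Myh7 made the largest rise of all genes called. Myh7, the beta myosin heavy chain, measured 9.0, 13.7, 24.6 and 18 TPM at 3h and 387, 4062, 172 and 29.96 TPM at 7d. Every 7d library was above every 3h library, but the 4 of 7d spread widely, with replicate 2 at the top and replicate 4 near 3h (adjusted p = 0.0169, log2 fold change 6.14, SE 1.29). Without 7d replicate 2 the log2 fold change was 3.48 and the gene still passed; leaving out any single 3h library (adjusted p up to 0.0666) or in a fit of only the 8 libraries it did not. At 0h it averaged 55.7 ± 30.1 TPM and at 24h 192 ± 37.1 TPM. Rrad, a small GTPase that restrains the L-type calcium channel, gave a tighter rise: 79.5, 93.9, 104 and 101 TPM at 3h and 574, 472, 420.5 and 502 TPM at 7d (adjusted p = 0.00386, log2 fold change 2.29, SE 0.37). Gja1, connexin 43, the main gap junction protein of the working ventricle, measured 37.2, 48.8, 42.1 and 38.8 TPM at 3h and 146, 111, 116 and 129 TPM at 7d (adjusted p = 0.0122, log2 fold change 1.5, SE 0.30). It was the 1 member past the threshold of 29 tested for calcium handling and ion channels, against 4.61% of all genes tested. Irx4, a transcription factor restricted to the ventricle, stood at 24.3, 28.3, 25.8 and 29.4 TPM at 3h and 63.4, 55, 62.9 and 53.6 TPM at 7d; no libraries overlapped (adjusted p = 0.000637, log2 fold change 1.03, SE 0.16). Its 0h level was 39.2 ± 2.78 TPM, between the compared times.

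Other stress genes of the heart did not pass. Nppa, the atrial natriuretic peptide, measured 333, 251, 533 and 374 TPM at 3h and 533, 2760.3, 813 and 972 TPM at 7d, with 3h replicate 3 and 7d replicate 1 at the same level (adjusted p = 0.106, log2 fold change 1.71, SE 0.55). Nppb, the brain natriuretic peptide, had no overlap, 1087, 704, 1043 and 936 TPM at 3h and 2496, 5571, 1513 and 1312 TPM at 7d, yet missed the threshold (adjusted p = 0.193, log2 fold change 1.46, SE 0.57), and Ankrd1, a stretch-responsive protein of the sarcomere, did not either (622 to 1100.2 TPM at 3h, 1093 to 3519 TPM at 7d, adjusted p = 0.131, log2 fold change 1.22, SE 0.42). In each of the 3 the highest library was 7d replicate 2. Xirp1, an actin-binding protein of the intercalated disc, passed with overlap (adjusted p = 0.0437, log2 fold change 0.53, SE 0.15). Thus 2 of 23 cardiac stress and contractile genes were higher and 0 lower, against 1.94% and 2.67% of all genes tested. Their median log2 fold change was -0.01. Atrial markers summed to 507 to 998 TPM at 3h and 893 to 3139 TPM at 7d, Nppa among them. Irx4 passed in every alternative fitted. Rrad and Gja1 passed whichever 1 library was left out, but not in at least 1 of the fits with Myl7 as a covariate and without both 3h replicates 2 and 3. Gja1 also missed the threshold without both 3h replicate 3 and 7d replicate 2. Xirp1 kept its call only without 3h replicate 3 or 7d replicates 2 or 3 (adjusted p up to 0.161 otherwise).

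Some vascular growth genes rose. Of 26 genes of endothelial activation and angiogenesis, all tested, 7 were higher, 1 lower and 18 not past the threshold at 7d, with a median log2 fold change of 0.39 and 1.94% of all genes called higher. Unc5b, a netrin receptor of endothelial tip cells, gave 3.96, 4.53, 5.77 and 4.4 TPM at 3h and 16.4, 9.33, 15.2 and 19.5 TPM at 7d, with replicate 2 the lowest of 7d (adjusted p = 0.00153, log2 fold change 1.6, SE 0.25). Esm1, a proteoglycan of tip cells, measured 0.687, 1.07, 0.583 and 0.738 TPM at 3h and 3.12, 3.29, 6.3 and 3.21 TPM at 7d (adjusted p = 0.00867, log2 fold change 2.27, SE 0.50). Vegfc, a growth factor of lymphatic vessels, stood at 4.36, 4.07, 6.37 and 7.96 TPM at 3h and 15.7, 8.83, 13.4 and 12.8 TPM at 7d (adjusted p = 0.0128, log2 fold change 1.06, SE 0.24), and Angpt2, a ligand of the Tie2 receptor, at 0.938, 1.31, 2.07 and 1.34 TPM at 3h and 4.19, 2.49, 2.23 and 4.69 TPM at 7d (adjusted p = 0.0157, log2 fold change 1.17, SE 0.28). Kdr, the receptor VEGFR2, gave 18.4, 32.2, 29.7 and 29.5 TPM at 3h and 76.3, 36.3, 55.9 and 88.2 TPM at 7d. 3h replicate 1 was the lowest library and 7d replicate 2 the lowest of its group (adjusted p = 0.0216, log2 fold change 1.13, SE 0.26). Hey1, a Notch target, and Nrp1, a co-receptor for VEGF, also rose.

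Notch4, a Notch receptor of endothelium named with its values known, went the other way (21.6 to 27.5 TPM at 3h, 12 to 20.7 TPM at 7d, adjusted p = 0.0265, log2 fold change -0.86, SE 0.21). Esam, an adhesion molecule of endothelial junctions, fell too (86.4 to 96.4 TPM at 3h, 57.4 to 72.3 TPM at 7d, adjusted p = 0.00722, log2 fold change -0.62, SE 0.13). Of 9 endothelial markers Kdr was higher, Esam lower and 7 passed in neither direction, and the list summed to 1095 to 1212 TPM at 3h and 820.2 to 1231 TPM at 7d. Of the 7 higher angiogenesis genes, 4 had a 0h mean above that at 7d and 3 one between the compared times. Over all genes higher at 7d these shares were 40.7% and 58.7%. Unc5b passed in every alternative fitted. Esm1 and Esam passed whichever 1 library was left out, but not in at least 1 of the fits with Myl7 as a covariate and without both 3h replicates 2 and 3. Esm1 was not called by limma on log2(TPM + 0.1) either. Vegfc missed the threshold without 3h replicates 1 or 2 (adjusted p up to 0.0558). Angpt2 missed the threshold without 3h replicates 1 or 2 or 7d replicates 1 or 4 (adjusted p up to 0.07). Kdr missed the threshold without 3h replicates 1 or 3 or 7d replicates 1 or 4 (adjusted p up to 0.0703). Notch4 kept its call only without 7d replicate 4 (adjusted p up to 0.0864 otherwise). The count of 7 was 2 without 3h replicate 1, 3 without 3h replicate 2, 7d replicate 1 or 7d replicate 4, 4 without 3h replicate 3, 1 without both 3h replicates 2 and 3, and 6 without both 3h replicate 3 and 7d replicate 2.

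**Figure D5:**
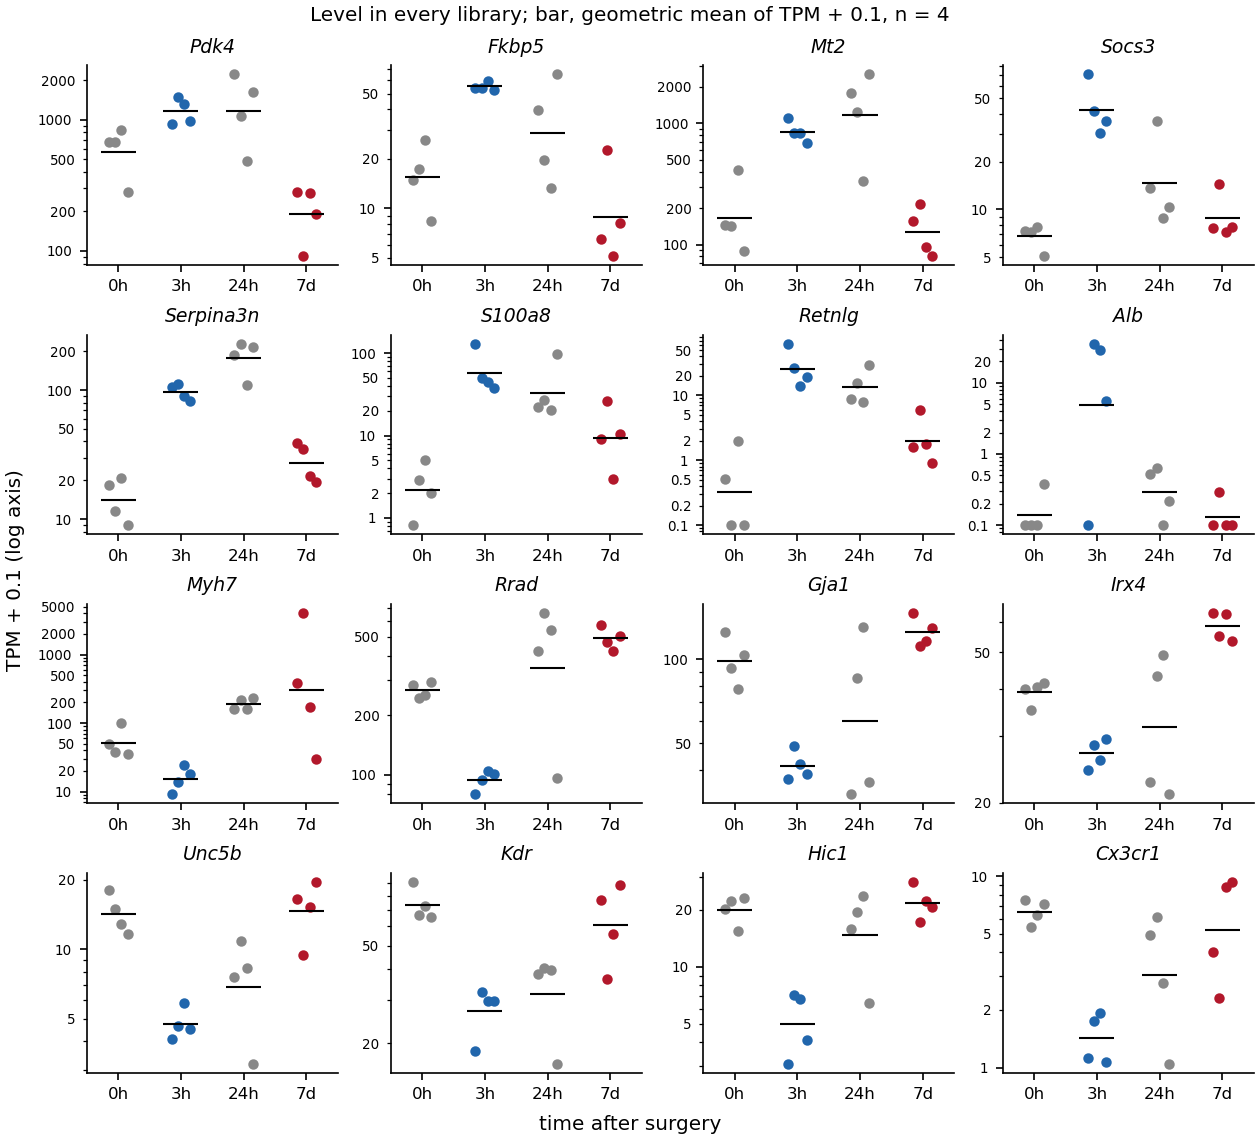
TPM + 0.1 on a log axis for 16 genes in each of the 4 libraries of 0h, 3h (blue), 24h and 7d (red), with the geometric mean as a bar. Pdk4, Fkbp5 and Socs3 are lower in all 4 libraries of 7d than in any of 3h, Rrad, Gja1 and Irx4 higher, and the 7d libraries of Myh7 run from 29.96 to 4062 TPM.

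Connective tissue genes gave calls in both directions. Of 37 tested genes of matrix glycoproteins, proteoglycans and crosslinking 3 were higher and 2 lower, against 1.94% and 2.67% of all genes tested. Fmod, fibromodulin, a small collagen-binding proteoglycan, fell to low levels: 1.4, 2.24, 2.31 and 1.59 TPM at 3h and 0.36, 0.417, 0.0753 and 0.291 TPM at 7d (adjusted p = 0.00178, log2 fold change -2.75, SE 0.49). Fbln2, fibulin 2, rose: 29.96, 36.8, 41.2 and 39.7 TPM at 3h and 66.1, 59.2, 50.02 and 74.1 TPM at 7d (adjusted p = 0.0019, log2 fold change 0.67, SE 0.12). Timp3, a matrix-bound inhibitor of metalloproteases, fell (123 to 169 TPM at 3h, 71.9 to 108 TPM at 7d, adjusted p = 0.00767, log2 fold change -0.85, SE 0.18), and Fbn1, fibrillin 1, rose (12.1 to 16.2 TPM at 3h, 18.7 to 35.3 TPM at 7d, adjusted p = 0.0216, log2 fold change 0.82, SE 0.20). Mmp2, gelatinase A, was the third to rise (log2 fold change 0.56, adjusted p = 0.0255, named with its value known). By edgeR 0 of 19 collagens tested passed (4 at an unadjusted p under 0.05, 1 by DESeq2). Their median log2 fold change was 0.33, and Col1a1, a chain of type I collagen, stood at 0.71 (adjusted p = 0.233). Of 9 fibroblast markers 0 passed by edgeR or DESeq2, with 6 at an unadjusted p under 0.05, and they summed to 2049.6 to 2205 TPM at 3h and 2506 to 2907 TPM at 7d, without overlap; their part in the matrix genes was not tested.

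The 14 largest rises were picked among called genes without overlap, and several were of low level. Hic1, a transcriptional repressor of mesenchymal progenitors, measured 2.99, 7.01, 6.66 and 4.03 TPM at 3h and 28, 17.2, 22.2 and 20.7 TPM at 7d (adjusted p = 0.00149, log2 fold change 2.01, SE 0.30). Sox9, a transcription factor of cartilage and valve cells, gave 0.906, 0.0779, 0.592 and 0.973 TPM at 3h and 3.96, 2.95, 3.31 and 2.73 TPM at 7d (adjusted p = 0.00342, log2 fold change 2.21, SE 0.42), and Mycn, a growth-promoting transcription factor, 0.788, 0.977, 1.3 and 0.939 TPM at 3h and 2.98, 1.61, 5.29 and 8.68 TPM at 7d (adjusted p = 0.00769, log2 fold change 2.11, SE 0.44). Dact2, a modulator of Wnt and TGF-beta signalling, rose (log2 fold change 2.24, adjusted p = 0.00635). Tsku, a secreted leucine-rich protein, rose (log2 fold change 2.0, adjusted p = 0.000238), as did Spon2, a matrix protein (log2 fold change 2.06, adjusted p = 0.00316). Alox12, a lipoxygenase of arachidonic acid, gave 1.06, 1.65, 1.95 and 2.12 TPM at 3h and 8.01, 6.59, 6.52 and 5.0 TPM at 7d (adjusted p = 6.34e-05, log2 fold change 1.86, SE 0.22), and Mrgprf, an orphan receptor, also rose (log2 fold change 1.67, adjusted p = 0.00554). Large falls outside the lists were Fam107a, an actin-linked stress gene (35 to 49 TPM at 3h, 2.0 to 11.8 TPM at 7d, adjusted p = 0.0335, log2 fold change -3.11, SE 0.74), Stc1, the hormone stanniocalcin (8.23 to 11.6 TPM at 3h, 0.973 to 1.75 TPM at 7d, adjusted p = 0.0145, log2 fold change -2.79, SE 0.58), and Slc10a6, a transporter of steroid sulfates (30.4 to 42.9 TPM at 3h, 3.17 to 10.7 TPM at 7d, adjusted p = 0.0097, log2 fold change -2.72, SE 0.52). Hic1, Tsku, Alox12, Fmod and Fbln2 passed in every alternative fitted. Sox9, Mycn, Dact2, Spon2, Mrgprf, Stc1, Slc10a6 and Timp3 passed whichever 1 library was left out, but not in at least 1 of the fits with Myl7 as a covariate and without both 3h replicates 2 and 3. Fam107a kept its call only without 7d replicate 2 (adjusted p up to 0.095 otherwise). Fbn1 kept its call only without 7d replicates 1 or 2 (adjusted p up to 0.0805 otherwise). Mmp2 kept its call only without 3h replicate 4 or 7d replicates 1 or 2 (adjusted p up to 0.107 otherwise).

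Immediate early genes, transcription factors that respond within minutes to a stimulus, split. Of 25 tested 4 were lower and 2 higher, against 2.67% and 1.94% of all genes tested. Fosl2, a partner of Jun proteins, fell: 22.2, 21, 17.8 and 14.3 TPM at 3h and 9.96, 8.93, 10.4 and 9.29 TPM at 7d (adjusted p = 0.000323, log2 fold change -1.06, SE 0.15). Zfp36, which speeds the decay of cytokine mRNAs, gave 72.7, 63.2, 75.8 and 80.6 TPM at 3h and 19.7, 26.1, 19.5 and 18.9 TPM at 7d (adjusted p = 0.00459, log2 fold change -1.88, SE 0.32), and Myc 11.7, 9.6, 13.4 and 7.86 TPM at 3h and 3.28, 6.09, 3.39 and 3.72 TPM at 7d (adjusted p = 0.0129, log2 fold change -1.44, SE 0.32). Junb was the fourth to fall. Jund rose with overlap (140.0 to 189 TPM at 3h, 189 to 293 TPM at 7d, adjusted p = 0.016, log2 fold change 0.52, SE 0.13), and Egr3, at low level and named with its values known, rose too (0.196 to 0.365 TPM at 3h, 0.574 to 1.81 TPM at 7d, adjusted p = 0.0296, log2 fold change 2.09, SE 0.56).

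Most clock genes did not pass, and the hour of day of each sampling is not given in the sources used here. Of 19 tested, 1 was higher and 2 lower, with a median of 0.03. Over all genes tested 1.94% were higher and 2.67% lower. Ciart, a repressor of the clock, measured 12.6, 12.8, 17.3 and 22.2 TPM at 3h and 5.53, 7.02, 5.29 and 2.34 TPM at 7d (adjusted p = 0.0129, log2 fold change -1.76, SE 0.38). Per1, a period gene that glucocorticoids also induce, gave 48.7, 43.8, 50.6 and 49.2 TPM at 3h and 9.09, 27, 20.2 and 14.4 TPM at 7d (adjusted p = 0.0425, log2 fold change -1.51, SE 0.38), and Bhlhe41, a repressor, 6.65, 9.29, 12.7 and 13.6 TPM at 3h and 22.4, 18.4, 20.5 and 17 TPM at 7d (adjusted p = 0.0305, log2 fold change 0.81, SE 0.21). Of the rest, Bmal1, Clock, Npas2, Per2, Per3, Cry1, Cry2, Nr1d1, Nr1d2, Rora, Dbp, Tef, Hlf, Nfil3 and Bhlhe40 had log2 fold changes between -0.50 and 0.30, none past the threshold. The sign of Bmal1, Clock, Npas2, Per3, Nr1d2, Rora, Nfil3 and Bhlhe40 differed in at least 1 alternative. Fosl2 and Zfp36 passed in every alternative fitted. Myc and Ciart passed whichever 1 library was left out, but not in at least 1 of the fits with Myl7 as a covariate and without both 3h replicates 2 and 3. Jund missed the threshold without 3h replicates 2 or 4 or 7d replicates 3 or 4 (adjusted p up to 0.0816). Egr3 kept its call only without 7d replicates 1 or 2 (adjusted p up to 0.101 otherwise). Bhlhe41 kept its call only without 3h replicates 3 or 4 or 7d replicate 4 (adjusted p up to 0.101 otherwise). Per1 kept its call only without 7d replicate 2 (adjusted p up to 0.112 otherwise).

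Growth and stress regulators gave few calls in each list, while 1.94% of all genes tested were called higher and 2.67% lower. All 3 Kruppel-like factors called of 12 fell: Klf9, Klf13 (31.4 to 33.2 TPM at 3h, 15.4 to 25.6 TPM at 7d, adjusted p = 0.0368, log2 fold change -0.71, SE 0.19) and Klf15, a regulator of cardiac lipid use (129 to 144 TPM at 3h, 42.2 to 97.6 TPM at 7d, adjusted p = 0.0438, log2 fold change -1.13, SE 0.29). In the FOXO, autophagy and atrophy list 3 of 28 were lower: Klf15, Depp1, a FOXO target (log2 fold change -1.78, adjusted p = 0.0348), and Foxo3 (log2 fold change -0.66, adjusted p = 0.0425). Of 20 p53 and growth arrest genes, Plk2, a stress-induced kinase (13, 14.3, 18 and 12.4 TPM at 3h and 29.3, 30.7, 25.6 and 31.1 TPM at 7d, adjusted p = 0.000238, log2 fold change 0.93, SE 0.13), and Phlda3, an inhibitor of AKT (log2 fold change 0.71, adjusted p = 0.0121), rose, while Cdkn1a and Gadd45a (log2 fold change -0.56, adjusted p = 0.0277) fell. Hspa1b, an inducible heat shock protein 70 with a near-identical copy, Hspa1a, that its counts may share, rose (0.436 to 1.15 TPM at 3h, 1.89 to 4.03 TPM at 7d, adjusted p = 0.00209, log2 fold change 1.89, SE 0.35), and with Hsp90aa1 (log2 fold change 0.45, adjusted p = 0.0174) it was 1 of 2 called of 23 heat shock genes. Chac1, which degrades glutathione under the integrated stress response, fell: 13.2, 14.2, 22 and 14 TPM at 3h and 3.45, 2.67, 1.98 and 3.52 TPM at 7d (adjusted p = 0.000238, log2 fold change -2.53, SE 0.34). Herpud1, a part of the degradation machinery of the endoplasmic reticulum, fell (429.6 to 500.1 TPM at 3h, 185 to 313 TPM at 7d, adjusted p = 0.00961, log2 fold change -1.01, SE 0.21), the 1 called of 21 genes of the unfolded protein response. Of 32 interferon-stimulated genes Ifit2 (log2 fold change 0.80, adjusted p = 0.00375) and Ifit3 (log2 fold change 0.57, adjusted p = 0.0491) rose and Oas2 (log2 fold change -0.84, adjusted p = 0.0284) fell. Cxcl5, a chemokine for neutrophils, was the 1 called of 24 chemokines and had 1 count at 3h and 37 at 7d (ratio 29.1, 95% exact counting interval 4.91 to 1180.0, adjusted p = 0.042). Plk2, Chac1, Hspa1b and Ifit2 passed in every alternative fitted. Herpud1 passed whichever 1 library was left out, but not in at least 1 of the fits with Myl7 as a covariate and without both 3h replicates 2 and 3. Phlda3 missed the threshold without 7d replicate 3 (adjusted p = 0.0587). Hsp90aa1 missed the threshold without 3h replicates 1 or 2 or 7d replicate 4 (adjusted p up to 0.0821). Gadd45a kept its call only without 3h replicate 4 or 7d replicates 3 or 4 (adjusted p up to 0.107 otherwise). Oas2 kept its call only without 3h replicates 3 or 4 or 7d replicate 4 (adjusted p up to 0.118 otherwise). Klf13, Klf15 and Depp1 kept their calls only without 7d replicate 2 (adjusted p up to 0.108, 0.106 and 0.0913 otherwise). Foxo3 kept its call only without 3h replicate 1 (adjusted p up to 0.115 otherwise). Ifit3 kept its call only without 7d replicate 1 (adjusted p up to 0.163 otherwise). Cxcl5 kept its call only without 7d replicates 1 or 4 (adjusted p up to 0.125 otherwise).

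In several large lists few or no members passed, where 4.61% of all genes tested did. Of 76 nuclear genes of oxidative phosphorylation 1 was lower, Ndufb4 of complex I (log2 fold change -0.46, adjusted p = 0.0469), while 69 had a fitted change below 0 (median -0.19). Ndufb4 kept its call only without 7d replicate 2 (adjusted p up to 0.172 otherwise). Of 76 cytosolic ribosomal protein genes 0 passed by edgeR or DESeq2 (5 at an unadjusted p under 0.05) and 70 had a fitted change below 0 (median -0.14), against a median of 0.003 over all genes. These genes are short, and no test was made of the lists as wholes. Tubulins, with 0 of 14 past the threshold by edgeR, had 8 at an unadjusted p under 0.05, 3 called by DESeq2 and a median log2 fold change of 0.41. By edgeR 0 also passed of 24 genes of the tricarboxylic acid cycle (1 at an unadjusted p under 0.05, 0 by DESeq2) and of 27 of NRF2 and antioxidant defence (5 and 1). The same held for 32 genes of cell cycle and mitosis (3 and 0), 22 of adrenergic and muscarinic signalling (3 and 1) and 10 of the MHC class II pathway (1 and 0). Of the hypoxia list, Hif1a rose and Pfkfb3 fell among 21. In the ATF4 list Chac1 and Cebpg fell among 20. Marker lists of B cells (0 of 6), T and NK cells (0 of 5), red cells (0 of 5), platelets (0 of 4), Schwann cells and neurons (0 of 5) and mesothelium (0 of 4) had no call by edgeR or DESeq2, with 2, 0, 0, 0, 0 and 1 members at an unadjusted p under 0.05. Pericyte markers gave 1 call of 10, Cspg4, which rose. Of 9 atrial markers Clec3b rose and Myl1 fell by edgeR, while 7 had an unadjusted p under 0.05 and 6 were called by DESeq2. Their log2 fold changes ran from -6.88 to 1.71, with 6 below 0 and 3 above. Myl1, a light chain of fast skeletal muscle, was also the 1 called of 8 skeletal muscle markers.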

How the data were processed

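The values come from 1 table of 57143 genes that the authors deposited. It holds unnormalized whole-number counts beside TPM and FPKM, per the file headers. Recomputing the deposited TPM and FPKM from counts and gene lengths gave them back to a relative 1e-06. Cutadapt and STAR were used with mm10, per the submitters' processing notes, with the counting tool, strand setting and versions not given in the sources used here, so antisense and overlapping genes and near-identical copies are uncertain. Mitochondrial genes were not among them (0 of 57143). Columns were assigned by the time and number in their names.

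Members and lists were chosen with earlier results of these data known. TMM-scaled counts of 16866 genes went into the quasi-likelihood F test of edgeR 4.0.16 in R 4.3.3 (robust, 16 libraries in 1 fit, no replicate block, contrast 7d minus 3h). P-values were adjusted by Benjamini and Hochberg over all genes tested, with a threshold of 0.05. An SE is the log2 fold change over the square root of F. Genes are named by rule: S100a8 and S100a9; the 14 largest rises and falls among called genes without overlap, with a mean of 2 TPM or more at 3h or 7d and a named symbol; up to 4 members of smallest p per list described; and every clock gene, except that a few items the rule names are not reported here. Others are said to be named with their values known, and calls that counts turn on are listed by name.

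Alternatives, 24 in all, were DESeq2 1.42.0, limma 3.58.1 on log2(TPM + 0.1) and log2(TPM + 1), other scalings, filters and covariates, and fits without libraries. On simulated counts of the 16866 genes with 200 changed, edgeR recovered 25.4% of 1.5-fold, 68.7% of 2-fold and 87.9% of 4-fold changes, and 1.63% of its calls were false. The simulation drew each gene independently, without deviations shared by many genes of a library. Its share of false calls therefore need not hold in these data.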

Additional observations from a re-analysis of the deposited data

Results flagged for a closer look

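In 26 of 216 groups of 4 libraries looked at (108 genes at 3h and at 7d, 12%), 1 library lay far from the other 3 by Dixon's 95% critical value. Chance flags about 1 in 20 groups, and genes that move together are flagged together.

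At 7d, replicate 2 was the highest for Myh7 (4062 TPM, the next 387), Cebpd (44.1, next 20.7), Socs3 (14.4, next 7.65), Zfp36 (26.1, next 19.7), Myc (6.09, next 3.72), Cxcr2 (1.28, next 0.195), Il1r2 (0.362, others 0) and Alb (0.196, others 0). Replicate 3 of 7d was the highest for Esm1 (6.30 TPM, next 3.29), Scd2 (17.2, next 15.9), Fgg (0.119, others 0) and the atrial gene Sln (0.189, others 0). Replicate 4 of 7d stood above the others for Eno1 (82.0 TPM, next 69.0) and Notch4 (20.7, next 12.7).

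At 3h, replicate 1 was the highest for S100a8 (130.5 TPM, next 49.6), S100a9 (356, next 113), Hdc (3.84, next 1.79) and Spon2 (3.82, next 2.18), and the lowest for C3 (57.1, next 73.0). Replicate 3 of 3h was the highest for Myl7 (146 TPM, next 8.39), Sln (32.9, next 0.939), Chac1 (22.0, next 14.2) and Dact2 (1.18, next 0.476). Replicate 2 of 3h was the highest for Egr3 (0.365 TPM, next 0.211) and Cxcl5 (0.173, others 0), and replicate 4 the lowest for Thrsp (90.3 TPM, next 104). The source of these values was not tested.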

How the results depend on the processing

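No alternative turned the direction of a called gene named here, but clock genes near 0 changed sign, and the median over all genes ran from -0.006 to 0.09. Of 100 named genes with a call, 60 lost it with Myl7 as a covariate and 64 without both 3h replicates 2 and 3. Of the 41 that lost it without some 1 library, these were 39 and 41. Myl7 itself did not overlap between 3h and 7d, so as a covariate it takes up part of the contrast. Calls lost in that fit therefore cannot be assigned to atrial RNA or to time. The count of 778 calls was 222 with Myl7 as a covariate (31.1% of them higher, against 42%), 1458 over every gene with a count, 475 and 498 by limma on log2(TPM + 0.1) and log2(TPM + 1), 238 without both 3h replicates 2 and 3, 509 without both 3h replicate 3 and 7d replicate 2, and 444 to 774 without 1 library. The lower glucocorticoid genes (15) were 2 with Myl7, 25 over every gene, 2 and 8 without these pairs of libraries, and 6 to 12 without 1 library. The lower acute-phase genes (10) were 5 with Myl7 and 5 without both 3h replicates 2 and 3 (6 to 11 without 1 library). The higher angiogenesis genes (7) were 1 with Myl7, 12 over every gene, 11 in a fit of 8 libraries and 1 without both 3h replicates 2 and 3 (2 to 8 without 1). The lower neutrophil markers (6) were 3 with Myl7, 10 over every gene, 3 by limma on log2(TPM + 0.1), 2 at a mean of 2 TPM or more and 3 without both 3h replicates 2 and 3 (3 to 7 without 1). The lower hepatocyte markers (6) were 2 with Myl7, 10 over every gene, 3 by the same limma fit and 1 without both (5 to 8 without 1). Why these counts shifted was not tested, the fits with fewer samples or genes included.

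S100a8 passed by DESeq2 (-2.54), over every gene (-2.5), with library weights (-2.65), by limma on log2(TPM + 1) (-2.48), without robust estimation (-2.51) and after quantile normalization (-2.58), and its exact permutation difference was -2.48; without 1 library it ran from -3.30 to -1.87. S100a9 passed by DESeq2 (-2.46), over every gene (-2.43), by limma on log2(TPM + 1) (-2.38), without robust estimation (-2.44), after quantile normalization (-2.45) and, without both 3h replicate 3 and 7d replicate 2, -3.52, with -2.38 by permutation and -3.28 to -1.62 without 1 library. Over every gene with a count, edgeR gave adjusted p = 1.72e-28 for S100a8 and 2.26e-41 for S100a9. In the main fit these were 0.0771 and 0.0849, at nearly the same log2 fold changes. The reason was not tested, nor whether the list counts of that fit share it.

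The share of called genes nearer to 7d at 0h (63.9%) was 59.2% with the gene-length trend removed, 67.7% by limma on log2(TPM + 1), 68.5% without both 3h replicates 2 and 3, 69.9% without both 3h replicate 3 and 7d replicate 2, and 59% to 70% without 1 library. At 24h (54.2%) it was 62.2% with Myl7, 49.2% over every gene, 50.2% with weights, 50.2% in a fit of 8 libraries and 50.6% to 55.6% without 1.

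Same-numbered libraries of 3h and 7d did not deviate together (correlations -0.23, -0.14, -0.17 and -0.00, none best with its own number). With the replicate number as a block there were 647 calls, 619 of them shared, 9 lower glucocorticoid genes and 4 higher angiogenesis genes.

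With 9.06 to 12.9 M counts a library, genes at a few counts such as Cxcl5 rest on wide counting intervals, and 4 libraries a group left most 1.5-fold changes undetected in simulation.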

Other observations

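Gata4, Tbx20 and Mef2c, 3 transcription factors of the cardiac lineage, were outside every list and are named after their values were seen. No list of such factors was counted. Gata4, a zinc-finger activator of cardiac genes, measured 36, 45.6, 47 and 44.8 TPM at 3h and 103, 68.2, 75.9 and 91.2 TPM at 7d, without overlap (adjusted p = 0.000238, log2 fold change 0.87, SE 0.12). Tbx20, a T-box factor of the heart, gave 12.4, 15.9, 14.3 and 13 TPM at 3h and 27.7, 24.2, 20.6 and 29 TPM at 7d (adjusted p = 0.00157, log2 fold change 0.78, SE 0.14), and Mef2c, an activator of muscle genes, 8.82, 9.2, 11.3 and 9.41 TPM at 3h and 17, 14.1, 14 and 14.8 TPM at 7d (adjusted p = 0.00149, log2 fold change 0.54, SE 0.09). All 3 passed in every alternative fitted. At 0h they averaged 72.5 ± 7.85 TPM, 29.3 ± 0.944 TPM and 16 ± 0.793 TPM (mean ± SD, n = 4), nearer to 7d than to 3h.

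The falls of smallest p, named likewise, were of Sbno2, a helicase-like cofactor induced by interleukin 10 and STAT3, and Apobec3, a cytidine deaminase that restricts retroviruses. Sbno2 measured 21, 17.9, 15.8 and 11.9 TPM at 3h and 6.69, 5.19, 4.63 and 5.63 TPM at 7d (adjusted p = 2.06e-05, log2 fold change -1.69, SE 0.17). Apobec3 gave 11.2, 11.2, 8.41 and 7.62 TPM at 3h and 3.12, 3.53, 3.21 and 3.18 TPM at 7d (adjusted p = 2.06e-05, log2 fold change -1.65, SE 0.18). At 24h they averaged 8.4 ± 2.5 TPM and 4.58 ± 1.1 TPM.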
